A study of Mus musculus with 60 samples.

Results

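The genes whose symbol starts with Kcn, or with Hcn or Scn directly followed by a digit, encode the potassium channels, the hyperpolarization-activated HCN channels and the voltage-gated sodium channels, together with their named accessory subunits. A total of 112 such genes were found among the 21950 protein-coding features of the count table, of which 94 were Kcn, 4 Hcn and 14 Scn genes, in 19 subfamilies on 20 chromosomes. RNA was sequenced from Adgrl3 -/- mice (KO) and Adgrl3 +/+ mice (WT), in striatum, hippocampus and prefrontal cortex, with 10 libraries per genotype and region and 60 in all. Per the labels, 12 mice of each genotype were killed at postnatal days 65 to 76, and the regions were separated from frozen brain and homogenized whole. Adgrl3 (also called Lphn3) encodes an adhesion G protein-coupled receptor. For sex, strain and the altered part of the gene, the sources used here give nothing.

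Sodium channels open on depolarization and carry the upstroke of the action potential. Potassium channels bring the membrane back to rest and set how easily and how often a neuron fires: voltage-gated Kv, KCNQ and EAG-type channels respond to depolarization, inward rectifiers and two-pore-domain channels hold the resting potential, and calcium- or sodium-activated channels follow activity. HCN channels open on hyperpolarization and carry a depolarizing pacemaker current. Striatal projection neurons are known for a strong inwardly rectifying potassium conductance at rest, and hippocampal and cortical pyramidal cells for HCN channels in their dendrites.

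Library totals ran from 38985577 to 51387833 counted reads. Adgrl3 itself ranged from 32.5 to 47.0 CPM (counts scaled to the size of the library) in KO striatum and from 144.0 to 175.6 CPM in WT striatum, from 30.8 to 39.6 CPM in KO hippocampus and from 116.7 to 131.2 CPM in WT hippocampus, and from 16.5 to 44.2 CPM in KO prefrontal cortex and from 125.8 to 172.3 CPM in WT prefrontal cortex, so that no KO library overlapped a WT library. The summed level of 8 striatal projection neuron genes was 4070 to 6368 CPM in KO striatum and 4110 to 6004 CPM in WT striatum. It was 94.8 to 507.8 CPM in the hippocampal libraries and 144.9 to 194.4 CPM in the prefrontal ones. Other lists set the regions less far apart. In WT, 8 hippocampal excitatory neuron genes had median sums of 1014 CPM in hippocampus, 651 CPM in striatum and 406 CPM in prefrontal cortex. For 7 cortical excitatory neuron genes these were 2258 CPM in prefrontal cortex, 1462 CPM in hippocampus and 788 CPM in striatum. The channel genes took 0.964% ± 0.036 of the counts in KO striatum and 0.980% ± 0.022 in WT striatum, 0.775% ± 0.019 in KO hippocampus and 0.780% ± 0.018 in WT hippocampus, and 0.804% ± 0.041 in KO prefrontal cortex and 0.807% ± 0.034 in WT prefrontal cortex (SD, n = 10 each). In such homogenates, fewer cells of a type and less RNA per cell cannot be told apart.

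Between WT regions, the channel genes differed widely. Of the 101 that passed the filter on low counts, 45 differed at least 2-fold (adjusted p under 0.05 with a log2 fold change of 1 or more in size) in at least 1 of the 3 contrasts, which is 44.6%, against 18.2% of all genes tested. The median absolute log2 fold change of the channel genes was 0.59 for striatum against hippocampus, 0.62 for striatum against prefrontal cortex and 0.54 for hippocampus against prefrontal cortex. Over all tested genes these medians were 0.21, 0.26 and 0.22. The 11 channel genes below the filter were Kcna7, Kcna10, Kcne1, Kcnj1, Kcnj15, Kcnk7, Kcnk16, Kcnk18, Kcnmb3, Kcnv2 and Scn4a, and the highest mean among them in a WT region was 0.105 CPM, that of Kcnk7 in striatum.

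In striatum against hippocampus, 24 channel genes passed, 16 higher and 8 lower. Of all genes, 10.2% passed, 5.12% higher and 5.06% lower. In striatum against prefrontal cortex, 29 passed, 19 higher and 10 lower, against 11.6% of all genes, 7.07% higher and 4.54% lower. In hippocampus against prefrontal cortex, 22 passed, 10 higher and 12 lower, against 10.1% of all genes, 5.98% higher and 4.16% lower. The most frequent pattern was a level in striatum above both other regions, which 12 genes showed (11.9%, against 3.17% of all genes), among them Scn4b, Kcnh4, Kcna5, Kcnj2, Kcnab1, Kcnk2, Kcnn3, Kcnk13, Kcnj5, Scn10a and Scn11a.

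**Figure D1:**
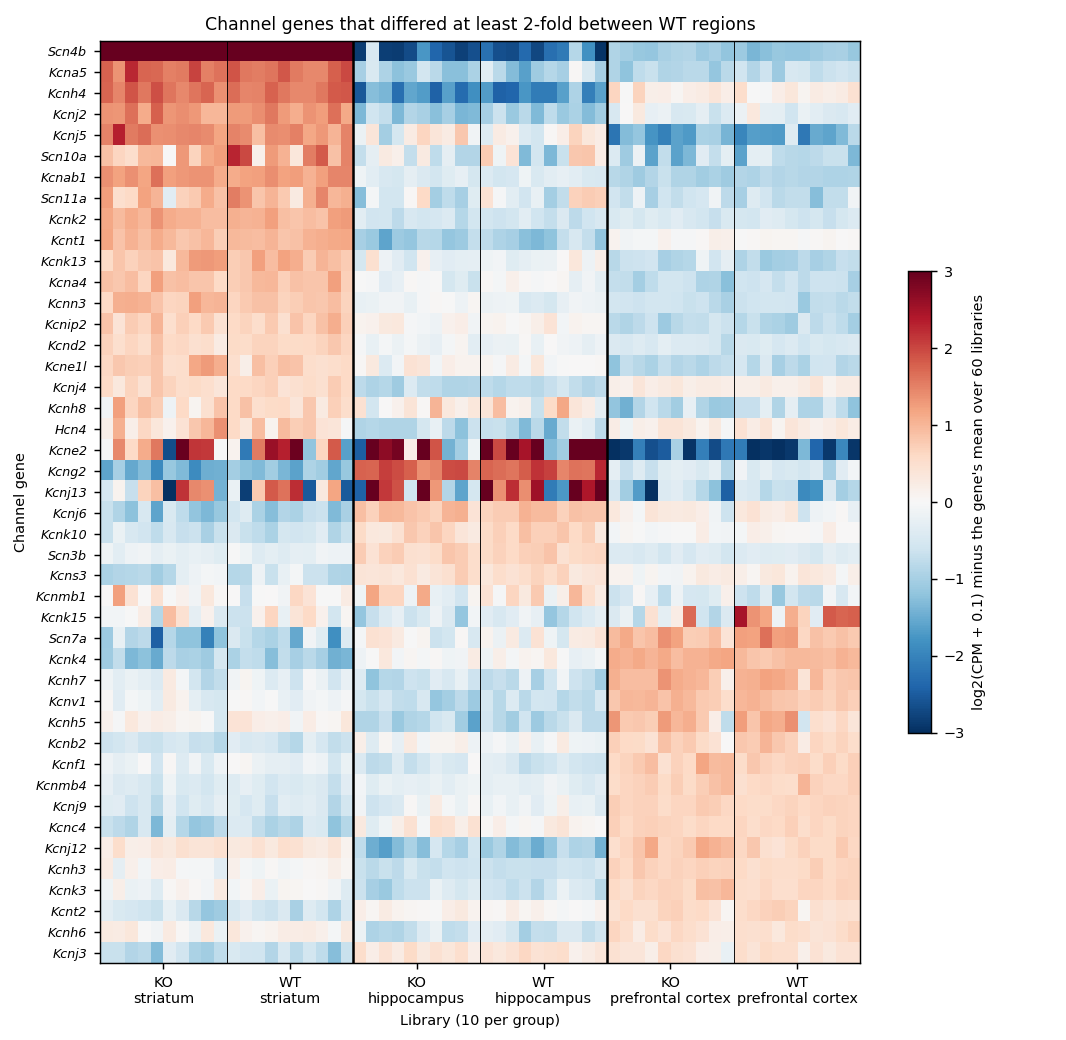
Level of 44 of the 45 channel genes that differed at least 2-fold between WT regions (down the page), in each of the 60 libraries (across), as log2(CPM + 0.1) minus the gene's mean over all libraries; colours are clipped at 3 log2 units in both directions. Blocks of libraries stand apart by region, KO and WT blocks of a region look alike, and Kcne2 and Kcnj13 vary from library to library within striatum and hippocampus.

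Scn4b, which encodes a single-pass sodium channel beta subunit known for its part in resurgent sodium current, differed most between striatum and hippocampus. It ran from 1167 to 2203 CPM in KO striatum (median 1493) and from 1324 to 2033 CPM in WT striatum (median 1541). In hippocampus it ran from 20.1 to 105.0 CPM in KO (median 23.0) and from 18.8 to 80.8 CPM in WT (median 29.6), and in prefrontal cortex from 64.1 to 79.4 CPM in KO (median 72.7) and from 56.0 to 74.5 CPM in WT (median 66.4). No striatal library came near any other. The log2 fold change of striatum over hippocampus was 5.55 ± 0.27 (SE) in KO and 5.57 ± 0.20 in WT, and that of striatum over prefrontal cortex 4.42 ± 0.26 in KO and 4.57 ± 0.19 in WT. In WT, striatum over hippocampus, the beta subunit Scn2b had a log2 fold change of 0.50 and Scn3b of -0.86. The hippocampal libraries with the most Scn4b, KO replicate 2 at 105.0 CPM and WT replicate 8 at 80.8 CPM, also had the highest summed striatal markers, 473.7 CPM in KO replicate 2 and 507.8 CPM in WT replicate 8, and the part of this in the hippocampal level was not tested.

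Kcnh4, of the ELK branch of the voltage-gated EAG-type channels, ran from 26.8 to 35.9 CPM in WT striatum, from 1.75 to 5.07 CPM in WT hippocampus and from 9.58 to 14.2 CPM in WT prefrontal cortex. All 3 WT ranges stood apart, and the same order held in KO, with 25.3 to 37.5, 1.58 to 3.97 and 9.63 to 15.5 CPM. Striatum over hippocampus gave a log2 fold change of 3.52 ± 0.14 in KO and 3.47 ± 0.13 in WT. Kcna5, a Kv1 pore subunit best known from heart and smooth muscle, had 14.9 to 21.9 CPM in WT striatum (median 16.6), 1.71 to 5.58 CPM in WT hippocampus (median 2.82) and 2.51 to 3.904 CPM in WT prefrontal cortex (median 3.47). Its log2 fold change in WT was 2.48 ± 0.14 over hippocampus and 2.39 ± 0.14 over prefrontal cortex, whereas hippocampus and prefrontal cortex did not differ beyond their spread (-0.09 ± 0.14, adjusted p = 0.584).

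Kcnj2, a strongly rectifying potassium channel that holds the resting potential, had 45.1 to 66.7 CPM in WT striatum, 8.42 to 13.5 CPM in WT hippocampus and 14.03 to 26.5 CPM in WT prefrontal cortex. Its log2 fold change of striatum over hippocampus was 2.41 ± 0.12 in KO and 2.34 ± 0.10 in WT, and of striatum over prefrontal cortex 1.61 ± 0.12 in KO and 1.60 ± 0.09 in WT. Other strong rectifiers went the same way against hippocampus in WT, with 1.35 for Kcnj4 and 1.43 for Kcnj12, while Kcnj14 had 0.02. Against prefrontal cortex in WT they did not share a direction, with 0.38 for Kcnj4, -0.28 for Kcnj12 and 0.68 for Kcnj14. Kcnab1, a cytoplasmic beta subunit that binds Kv1 channels, averaged 433 ± 47.5 CPM in KO striatum and 419 ± 41.5 CPM in WT striatum, against 134 ± 13.5 and 133 ± 12.4 CPM in KO and WT hippocampus and 92.1 ± 8.197 and 94.1 ± 3.04 CPM in KO and WT prefrontal cortex (SD, n = 10 each). The other beta subunits did not share this: Kcnab2 was lower in WT striatum than in WT hippocampus (-0.90 ± 0.03), and Kcnab3 did not pass (-0.11 ± 0.12, adjusted p = 0.435).

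**Figure D2:**
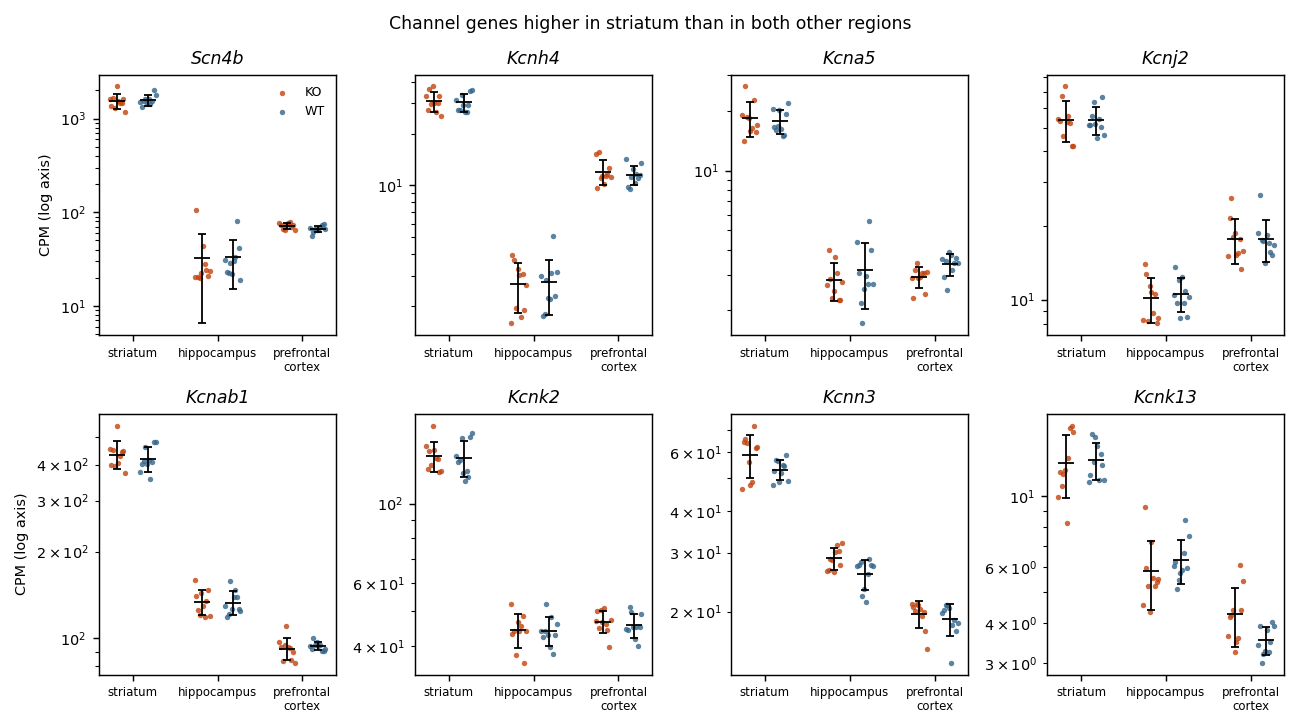
CPM on a log axis of 8 of the 12 channel genes that were at least 2-fold higher in WT striatum than in both other WT regions; each point is a library (10 per group, KO left of WT), and the bar and whiskers are the mean and SD. In each panel the striatal libraries stand above the libraries of both other regions, except for single hippocampal libraries of Kcnk13.

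Among the two-pore-domain channels, which carry background potassium current, Kcnk2, a mechanically gated member, had a log2 fold change of striatum over hippocampus of 1.60 ± 0.06 and over prefrontal cortex of 1.55 ± 0.06 in WT. Kcnk13 had 1.03 ± 0.08 and 1.87 ± 0.08 in the same contrasts. Kcnn3, a small-conductance calcium-activated channel, was higher in WT striatum by 1.03 ± 0.06 and 1.49 ± 0.06, whereas its relative Kcnn2 was lower in WT striatum than in WT hippocampus (-0.84 ± 0.09). Kcnt1, a sodium-activated channel, was higher in WT striatum than in WT hippocampus (1.94 ± 0.08) and stopped just short of 2-fold against prefrontal cortex (0.97 ± 0.07). Summed oligodendrocyte markers also differed, with 5311 to 10311 CPM in WT striatum, 2547 to 4342 CPM in WT hippocampus and 1213 to 1601 CPM in WT prefrontal cortex, and their part in these contrasts was not tested.

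Other genes above both regions were of low level. Scn10a and Scn11a, best known from sensory neurons, had medians of 0.702 and 0.404 CPM in WT striatum, 0.219 and 0.124 CPM in WT hippocampus and 0.0784 and 0.0468 CPM in WT prefrontal cortex. Kcnj5, a subunit of the G protein-gated inward rectifiers, had medians of 1.63, 0.630 and 0.112 CPM in WT striatum, hippocampus and prefrontal cortex.

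Windows of the RefSeq promoter table (build GRCm38.p6, 250 bases before to 50 after a gene's start) were found for 81 of the 112 channel genes and for 11 of the 12 genes higher in striatum than in both other regions. The windows of the genes with the largest log2 fold changes of WT striatum over WT hippocampus are shown, 5′ to 3′ on the gene's strand, so that the sequence upstream of the genes with the clearest regional pattern can be read. Capitals mark the GC box letters GGGCGG on the printed strand. Scn4b is at chr9:45138374-45138673 on the plus strand, Kcnh4 at chr11:100759729-100760028 on the minus strand, Kcna5 at chr6:126535506-126535805 on the minus strand and Kcnj2 at chr11:111065914-111066213 on the plus strand.
Scn4b: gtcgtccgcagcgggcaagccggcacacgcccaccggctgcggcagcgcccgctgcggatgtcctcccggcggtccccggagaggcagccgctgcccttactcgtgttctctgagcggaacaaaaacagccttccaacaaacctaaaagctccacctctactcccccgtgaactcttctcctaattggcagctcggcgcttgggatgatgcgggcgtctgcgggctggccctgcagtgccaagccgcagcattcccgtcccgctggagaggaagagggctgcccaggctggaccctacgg
Kcnh4: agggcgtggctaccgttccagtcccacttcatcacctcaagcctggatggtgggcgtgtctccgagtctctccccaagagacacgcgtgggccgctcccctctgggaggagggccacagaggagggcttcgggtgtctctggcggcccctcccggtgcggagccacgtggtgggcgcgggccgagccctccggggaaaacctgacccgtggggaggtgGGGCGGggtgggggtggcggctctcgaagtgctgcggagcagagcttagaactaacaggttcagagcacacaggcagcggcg
Kcna5: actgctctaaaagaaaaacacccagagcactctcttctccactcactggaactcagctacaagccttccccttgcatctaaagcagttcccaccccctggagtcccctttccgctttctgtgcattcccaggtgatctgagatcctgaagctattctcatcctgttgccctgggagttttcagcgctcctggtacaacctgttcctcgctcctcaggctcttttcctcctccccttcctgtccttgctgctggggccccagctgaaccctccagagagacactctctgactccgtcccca
Kcnj2: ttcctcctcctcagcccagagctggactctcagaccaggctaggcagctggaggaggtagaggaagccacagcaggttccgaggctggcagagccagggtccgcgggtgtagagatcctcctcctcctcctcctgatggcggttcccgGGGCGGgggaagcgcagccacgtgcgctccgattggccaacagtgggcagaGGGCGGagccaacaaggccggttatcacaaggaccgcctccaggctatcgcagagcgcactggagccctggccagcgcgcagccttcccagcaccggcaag
Searched on both strands, the GC box GGGCGG was in 48 of the 108 windows of the channel genes (44.4%) and in 35.7% of all 32851 windows. The TATA box TATAAA was in 6 of the 108 (5.56%) and in 13.6% of all, and the cyclic AMP response element TGACGTCA in 0 of the 108 and in 1.79% of all. Of the 16 windows of the striatum-high genes, 5 held a GC box, 1 a TATA box and 0 a cyclic AMP response element. A match or its absence describes these letters in these windows and no more.

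Hippocampus stood above both other WT regions for Kcng2, Kcne2 and Kcnj13 (2.97% of the tested channel genes, against 2.69% of all genes). Kcng2 encodes an electrically silent subunit that modifies Kv2 channels. It had 2.22 to 3.67 CPM in WT striatum, 19.6 to 33.9 CPM in WT hippocampus and 3.48 to 6.64 CPM in WT prefrontal cortex, with no overlap between hippocampus and the rest. Striatum over hippocampus was -3.26 ± 0.11 in KO and -3.08 ± 0.12 in WT on the log2 scale. Kcnj6, a G protein-gated inward rectifier that lowers excitability downstream of inhibitory receptors, had 24.2 to 46.5 CPM in WT striatum and 95.6 to 124 CPM in WT hippocampus, a log2 fold change of -1.68 ± 0.12. Kcnj3, its usual partner, was lower in WT striatum than in both other regions (-1.10 ± 0.07 and -1.11 ± 0.07), and Kcnk10, a relative of Kcnk2, was lower in WT striatum than in WT hippocampus (-1.31 ± 0.07).

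Kcne2 and Kcnj13, an accessory subunit and an inward rectifier that are both known from the choroid plexus epithelium, spread over a wide range among libraries of the same region. Kcne2 ran from 0.0459 to 7.03 CPM in KO striatum and from 0.109 to 6.99 CPM in WT striatum, and from 0.0651 to 18.4 CPM in KO hippocampus and from 0.274 to 13.1 CPM in WT hippocampus. Kcnj13 ran from 0.0688 to 8.67 CPM in KO striatum and from 0.175 to 8.99 CPM in WT striatum, and from 0.260 to 21.4 CPM in KO hippocampus and from 0.359 to 19.8 CPM in WT hippocampus. Summed choroid plexus markers also spread widely in these regions, from 21.9 to 1132 CPM in KO striatum and from 33.9 to 1311 CPM in WT striatum. In hippocampus they ran from 38.6 to 3046 CPM in KO and from 53.2 to 2666 CPM in WT. In prefrontal cortex they ran from 4.07 to 58.1 CPM in KO and from 4.74 to 21.7 CPM in WT. In WT hippocampus the libraries with the lowest marker sums, replicates 6 and 7, had 0.274 and 0.349 CPM of Kcne2 and 0.359 and 0.486 CPM of Kcnj13, and replicate 10, with the highest sum, had 13.1 and 19.8 CPM. Striatum over hippocampus in WT was -1.48 ± 0.57 for Kcne2 (adjusted p = 0.0235) and -1.49 ± 0.57 for Kcnj13 (adjusted p = 0.0218), and in KO neither passed (-0.97 ± 0.64, adjusted p = 0.193, and -1.02 ± 0.62, adjusted p = 0.156). With the choroid plexus marker score as a covariate these WT values were 0.03 for Kcne2 and -0.01 for Kcnj13. In WT hippocampus against prefrontal cortex the same covariate turned Kcnj13 from 3.25 to -3.30 (adjusted p = 1.07e-06, quasi-likelihood F test). The WT marker sums of these regions do not overlap, so that value is an extrapolation. Neither it nor its p gives a region difference at equal marker levels. The covariate was chosen after seeing the data. Without WT replicate 1, 8 or 10 neither gene passed in WT striatum against hippocampus (adjusted p from 0.0665 to 0.0797).

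**Figure D3:**
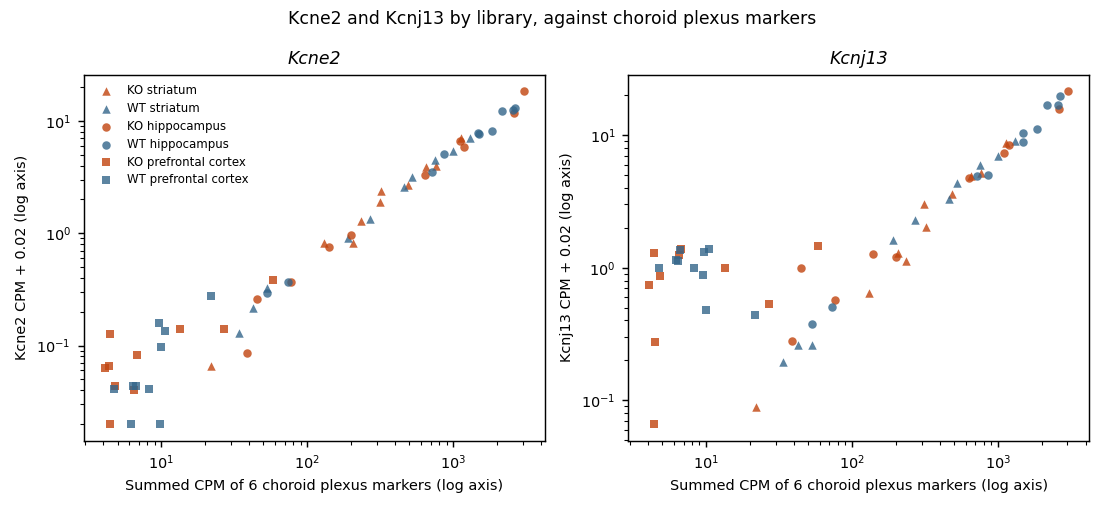
CPM of Kcne2 (left) and Kcnj13 (right), each plus 0.02 and on a log axis, against the summed CPM of 6 choroid plexus markers (log axis), with 1 point per library. In striatum and hippocampus both genes climb with the marker sum in KO and WT alike, and in prefrontal cortex, where the sum stays under 60 CPM, Kcnj13 does not follow it.

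Prefrontal cortex stood above both other WT regions for Kcnh7, Kcnk15 and Scn7a (2.97%, against 2.12% of all genes). Summed olfactory bulb and newborn neuron markers were 35.1 to 47.7 CPM in WT striatum and 31.5 to 45.8 CPM in WT hippocampus. In WT prefrontal cortex they were 39.5 to 159 CPM, and their part in the region contrasts of Kcnk15 was not tested. Kcnh7, an ERG-type channel, had 58.9 to 95.5 CPM in WT striatum, 44.6 to 85.3 CPM in WT hippocampus and 118 to 207 CPM in WT prefrontal cortex. Its log2 fold change of hippocampus over prefrontal cortex was -1.56 ± 0.13 in KO and -1.56 ± 0.12 in WT. Of the 8 members of the EAG, ERG and ELK family, 5 were at least 2-fold lower in WT hippocampus than in WT prefrontal cortex (Kcnh3, Kcnh4, Kcnh5, Kcnh6 and Kcnh7) and 1, Kcnh8, was at least 2-fold higher, with a family median of -1.15, where 4.16% of all genes were lower and 5.98% higher. Kcnh1 (-0.98) and Kcnh2 (-0.44) were lower by less than 2-fold. The lower ones included Kcnh5, an EAG-type channel (-1.56 ± 0.16), and Kcnh3, the highest of the family in CPM, which averaged 135 ± 9.66 CPM in WT striatum, 86.0 ± 4.59 CPM in WT hippocampus and 201 ± 10.8 CPM in WT prefrontal cortex (SD, n = 10 each). Kcnf1, a silent Kv subunit, also had less in WT hippocampus than in WT prefrontal cortex (-1.19 ± 0.06). Kcnk4, a mechanically gated two-pore-domain channel, had 3.05 to 5.18 CPM in WT striatum, 7.14 to 10.7 CPM in WT hippocampus and 14.8 to 17.6 CPM in WT prefrontal cortex, so that the regions did not overlap. Striatum over prefrontal cortex was -2.10 ± 0.09 in KO and -1.93 ± 0.08 in WT. Scn7a, a sodium-sensing relative of the sodium channels, Kcnc4, a fast Kv3 channel, and Kcnb2, a delayed rectifier, were lower in WT striatum than in WT prefrontal cortex, with log2 fold changes of -1.83 ± 0.17, -1.32 ± 0.08 and -1.23 ± 0.08. Kcnj12 was lower in WT hippocampus than in WT prefrontal cortex (-1.71 ± 0.08), and so was Kcnk15, of very low level (-2.87 ± 0.41).

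Among the HCN channels, Hcn2 was higher in WT striatum, with a log2 fold change of 0.78 ± 0.06 over hippocampus and 0.56 ± 0.06 over prefrontal cortex, and Hcn4 passed 2-fold against hippocampus (1.32 ± 0.13). The subunits of A-type current, which delays firing, differed among themselves: Kcnd2 and its partner Kcnip2 were higher in WT striatum than in WT prefrontal cortex (1.10 ± 0.04 and 1.53 ± 0.07), while Kcnd3 had -0.50. More even across the WT regions were Kcnc1, Scn2a and Scn8a. Kcnc1, a fast Kv3 channel, averaged 182 ± 17.8 CPM in WT striatum, 189 ± 7.94 CPM in WT hippocampus and 180.4 ± 9.42 CPM in WT prefrontal cortex (SD, n = 10 each), and none of its contrasts passed (adjusted p of at least 0.158). Scn2a and Scn8a, main sodium channels of excitatory neurons, had log2 fold changes between -0.20 and 0.14 in the 3 WT contrasts.

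Several other genes that had the highest mean WT CPM of their subfamily, not scaled to gene length, differed by less than 2-fold between WT regions. Kcnma1, the pore of the large-conductance calcium-activated channel, averaged 269 ± 21.3 CPM in WT striatum, 304 ± 9.23 CPM in WT hippocampus and 377 ± 36.2 CPM in WT prefrontal cortex (SD, n = 10 each). Kcna2, an axonal Kv1 channel, averaged 301 ± 14.6, 226 ± 15.7 and 312 ± 40.5 CPM in the same order. Kcnj10, the inward rectifier of astrocytes, averaged 219 ± 38.3, 172 ± 10.97 and 179 ± 12.8 CPM, and Kcnk1 93.7 ± 5.73, 70.8 ± 5.86 and 80.4 ± 3.22 CPM. The KCNE subunit of highest level, Kcne1l, averaged 5.02 ± 0.796, 3.34 ± 0.330 and 1.89 ± 0.272 CPM, and was past 2-fold only in striatum against prefrontal cortex (1.41 ± 0.09). Kcnrg, a regulator of potassium channels, averaged 0.369 ± 0.148, 0.590 ± 0.157 and 0.520 ± 0.162 CPM. Among 24 tested genes for auxiliary and anchoring proteins of these channels, Gnb5 and Rgs7bp were higher (1.18 and 1.01) and Fgf13 lower (-1.05) in WT striatum than in WT hippocampus, and Dpp10 was lower (-1.26) and Fgf11 higher (1.23) in WT striatum than in WT prefrontal cortex, beside 10.2% and 11.6% of all genes past the same limits.

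The KO animals gave a second set of region contrasts. Of 100 channel genes tested in KO, 27 passed for striatum against hippocampus (background 10.4%), 34 for striatum against prefrontal cortex (background 12.6%) and 20 for hippocampus against prefrontal cortex (background 9.74%). Shared with WT in the same direction were 21 genes in the first contrast (77.8% of the KO and 87.5% of the WT calls), 28 in the second (82.4% and 96.6%) and 16 in the third (80% and 72.7%). Over all genes, these shares were 83.6% and 85.5%, 83.4% and 90.1%, and 87% and 83.3%. Whether a region contrast differed between genotypes was tested by the interaction given with the genotype comparison. A gene that did not pass there is not thereby shown to have equal contrasts in KO and WT.

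The question of the design was whether loss of Adgrl3 changes expression in these regions. No channel gene passed. At an adjusted p under 0.05, 0 of 99 tested channel genes differed between KO and WT in striatum (background 0.0514%), 0 of 98 in hippocampus (background 0.128%), 0 of 95 in prefrontal cortex (background 0.117%) and 0 of 102 on counts summed over the 3 regions (background 0.162%). The interaction of genotype and region gave 0 of 101 (background 0.0248%). At an unadjusted p under 0.05, 4.04% of the channel genes differed in striatum (7.14% of all genes), 2.04% in hippocampus (8.14%), 12.6% in prefrontal cortex (11.8%), 7.84% on the sums (10.5%) and 3.96% in the interaction (3.96%). In prefrontal cortex 11 of these 12 genes were higher in KO, 11.6% of those tested against 6.03% of all genes. In the same libraries, summed olfactory bulb and newborn neuron markers had a median of 35.6 CPM in KO and 88.9 CPM in WT, and summed erythrocyte markers 412 CPM in KO (300 to 619) and 677 CPM in WT (389 to 888). With an olfactory bulb marker score as a covariate, 6 genes in all passed at an adjusted p under 0.05 in prefrontal cortex, against 18 without it. Since these markers differed between KO and WT, their part and that of genotype in the higher levels cannot be told apart. The part of the erythrocyte markers was not tested.

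The differences were small. The median absolute log2 fold change of KO over WT was 0.055 in striatum, 0.046 in hippocampus and 0.064 in prefrontal cortex for the channel genes, against 0.047, 0.043 and 0.050 over all genes. The median 95% interval of a channel gene reached 0.16, 0.15 and 0.14 log2 units to either side in the same regions. By DESeq2, 2 channel genes passed in prefrontal cortex, Kcnk4 and Kcnk15, and 0 in striatum, hippocampus and the sums, where it called 222 genes in all in prefrontal cortex, 28 in striatum, 47 in hippocampus and 131 on the sums.

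**Figure D4:**
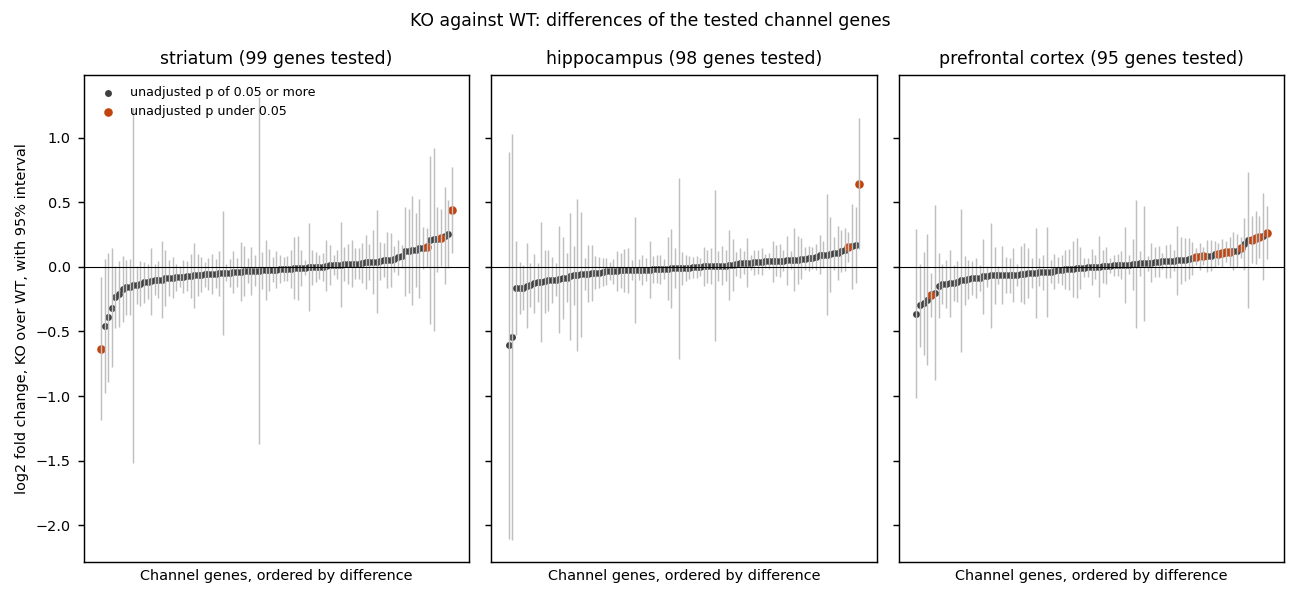
Log2 fold change of KO over WT with its 95% interval for each tested channel gene, ordered by size within striatum, hippocampus and prefrontal cortex; orange points have an unadjusted p under 0.05. Most values lie close to 0, the orange points of prefrontal cortex are on the positive side except for Kcna5, and the widest intervals belong to genes of low or variable level.

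Kcnk4 had the smallest p in prefrontal cortex. It ran from 16.3 to 19.5 CPM in KO (median 18.2) and from 14.8 to 17.6 CPM in WT (median 16.6), and the groups overlapped between 16.3 and 17.6 CPM. Its log2 fold change was 0.15 ± 0.04 (p = 8.44e-04, adjusted p = 0.107), and DESeq2 gave an adjusted p of 0.0240. With an olfactory bulb score as a covariate it was 0.14 (adjusted p = 0.912). In striatum it was -0.01 ± 0.12 and in hippocampus 0.00 ± 0.07. Kcnk1, a weakly rectifying two-pore-domain channel, had 0.12 ± 0.04 in prefrontal cortex (adjusted p = 0.223), and Kcnj12 had 0.23 ± 0.08 (adjusted p = 0.225), with 17.1 to 27.1 CPM in KO and 15.9 to 21.2 CPM in WT. Among the lower genes of smallest p there were Kcna5 (-0.22 ± 0.08, adjusted p = 0.287) and the silent subunit Kcns3 (-0.12 ± 0.07, adjusted p = 0.474).

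Kcnn3 was on the same side in all regions. It ran from 46.4 to 71.9 CPM in KO striatum and from 47.8 to 58.96 CPM in WT striatum, and from 26.3 to 32.1 CPM in KO hippocampus and from 21.3 to 28.7 CPM in WT hippocampus, and the groups overlapped in both. Its log2 fold change was 0.15 ± 0.07 in striatum (adjusted p = 0.695), 0.15 ± 0.06 in hippocampus (adjusted p = 0.499), 0.05 ± 0.06 in prefrontal cortex and 0.14 ± 0.05 on the sums (adjusted p = 0.266). In striatum Kcnq1, best known from heart, had 0.44 ± 0.16 (adjusted p = 0.629), the accessory subunit Kcne1l 0.23 ± 0.11, Scn10a -0.63 ± 0.27 (adjusted p = 0.675), Scn8a -0.08 ± 0.04 and Kcng2 -0.23 ± 0.12. In hippocampus Kcne3, an accessory subunit of low level, had 0.64 ± 0.24 (adjusted p = 0.511), Hcn3 0.09 ± 0.05, Kcna4 -0.16 ± 0.08, Kcnk10 -0.14 ± 0.08 and Kcnab3 -0.16 ± 0.10.

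Kcnk15, a two-pore-domain subunit that yields little current on its own, had the largest difference on the sums, a log2 fold change of -1.01 ± 0.31 (p = 0.00374, adjusted p = 0.239). In prefrontal cortex, where it lay below the filter, it ran from 0.0213 to 0.622 CPM in KO (median 0.0736) and from 0.0765 to 1.13 CPM in WT (median 0.437), and the groups overlapped. Without the filter its log2 fold change there was -1.75 ± 0.51 (adjusted p = 0.188), and DESeq2 gave an adjusted p of 0.0435. Summed olfactory bulb and newborn neuron markers in prefrontal cortex were 23.0 to 91.8 CPM in KO (median 35.6) and 39.5 to 159 CPM in WT (median 88.9). KO replicate 7 had both the highest Kcnk15 and the highest marker sum of its group, and WT replicate 1 of its own. With the same olfactory bulb score as a covariate the log2 fold change of Kcnk15 was -0.06 ± 0.36 in prefrontal cortex without the filter and -0.16 ± 0.27 on the sums. For the sums the score came from the prefrontal libraries, a setting that was not planned. Since the marker medians differed between KO and WT, the parts of genotype and markers cannot be told apart. Without KO replicate 7 the sums gave -1.35 (adjusted p = 0.0287).

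**Figure D5:**
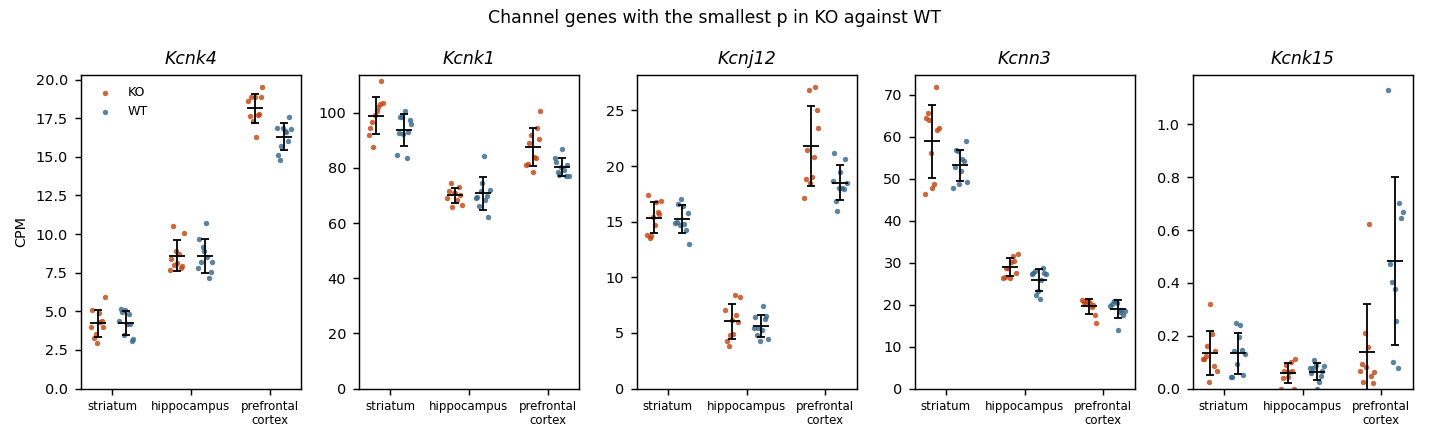
CPM of Kcnk4, Kcnk1, Kcnj12, Kcnn3 and Kcnk15 in each library of striatum, hippocampus and prefrontal cortex (10 per group, KO left of WT), with the mean and SD as bar and whiskers. KO and WT points overlap in every panel and region, and the WT libraries of prefrontal cortex spread most for Kcnk15.

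The channel genes on chromosome 5, which also carries Adgrl3, were Kcnh2, an ERG-type channel, Kcnk3, an acid-sensitive two-pore-domain channel, and Kcnip4, a calcium-binding partner of Kv4 channels. In GRCm38 they lie at 24319589 to 24351604, 30588170 to 30625271 and 48389502 to 49524907. Kcnh2 had 0.02 ± 0.06 in striatum, -0.10 ± 0.06 in hippocampus and -0.06 ± 0.04 in prefrontal cortex. Kcnk3 had 0.01 ± 0.08, -0.02 ± 0.11 and 0.12 ± 0.06 in the same order, and Kcnip4 0.04 ± 0.07, -0.04 ± 0.05 and -0.07 ± 0.04. None passed, and the smallest adjusted p was 0.411, for Kcnk3 in prefrontal cortex. Of the 26 listed partner genes of the channels, 24 were tested and 0 passed in any of the 4 genotype comparisons; the smallest p was that of Lrrc55, an auxiliary subunit of large-conductance calcium-activated channels, in prefrontal cortex (-0.25 ± 0.08, p = 0.00518, adjusted p = 0.192).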

How the data were processed

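The deposited table holds raw read counts of 21950 protein-coding features in 60 libraries. Per the file headers, a feature runs from the start to the end of a gene, with its introns. GRCm38, FastQC 0.11.4, cutadapt 1.16, STAR 2.5.2b, bedtools and DESeq2 1.16.1 are named in the submitters' processing notes; the role of each is not stated there. Among 493 gene pairs nested on the same strand, 0 had fewer reads in the outer gene, against 82 of 222 on opposite strands, so reads were counted by strand and once per overlapping gene; Kcnip1 is the 1 channel gene that overlaps another gene on its own strand.

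Counts were tested with edgeR 4.0.16 in R 4.3.3: quasi-likelihood F test, robust, TMM scaling, filterByExpr, and Benjamini-Hochberg adjustment at 0.05 over all tested genes. Region contrasts, fitted on the 30 libraries of a genotype, also needed an absolute log2 fold change of 1. KO and WT were compared on the 20 libraries of a region, and on counts summed over the regions per genotype and replicate number (10 against 10). CPM use TMM scaling over all 60 libraries. Alternatives were DESeq2 1.42.0, limma 3.58.1 (voom with quality weights), RLE size factors, other filters, a replicate block, a single fit, leaving out each replicate and marker scores as covariates. The KO against WT test was checked on simulated counts modelled on the 20 hippocampal libraries and drawn as independent. The other comparisons were not simulated. Figures were drawn with matplotlib 3.10.9.

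The channel genes, subfamilies, marker and partner lists were chosen with earlier results of these data known. Named were the chromosome 5 members, the 3 higher and 3 lower of smallest p per genotype comparison, the 5 largest called in each direction per WT region contrast and the highest gene of each subfamily; other names belong to a count or to their family's account. Some genes are not reported here. Nothing in the labels says that equal replicate numbers mark 1 animal, or that the libraries of a group come from separate animals. With 12 mice and 30 libraries per genotype, some libraries must share an animal, and the main region fits did not pair them. The p-values therefore measure the spread between these libraries.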

Additional observations from a re-analysis of the deposited data

Results flagged for a closer look

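In 5 of 99 groups of 10 libraries checked, 1 library stood apart from the rest by more than the 95% limit of Dixon's test; chance gives about 1 in 20. In WT hippocampus, replicate 8 had 80.8 CPM of Scn4b (next library 41.1 CPM) and 5.07 CPM of Kcnh4 (next 3.15 CPM), and it also had the highest striatal marker sum of its group, 507.8 CPM. In KO hippocampus, replicate 2 had 33.9 CPM of Kcnh2 (next 27.9 CPM) and the highest striatal marker sum of its group, 473.7 CPM. The part of these markers in the levels was not tested. In WT prefrontal cortex, replicate 10 had 95.8 CPM of Kcnip4 (next 84.3 CPM). In WT striatum, replicate 4 had 339.8 CPM of Scn8a, below the next at 361.2 CPM. No channel gene passed the interaction test of genotype and region after adjustment.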

How the results depend on the processing

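The count of channel genes called between KO and WT was 0 in striatum, hippocampus and the interaction under every alternative run. In prefrontal cortex it was 2 with DESeq2 (Kcnk4 and Kcnk15) and 1 with all 60 libraries in a single fit (Kcnk15). On the sums it was 0 to 1 when a replicate was left out, the 1 being Kcnk15 without KO replicate 7. Counts over all genes moved more: 8 in striatum became 28 with DESeq2, 22 in the single fit and 3 with the replicate block, 20 in hippocampus became 47 with DESeq2 and 5 with the block, and 18 in prefrontal cortex became 222 with DESeq2, 208 in the single fit, 55 with voom, 10 with the block and 6 with the olfactory bulb score. On the sums 27 became 131 with DESeq2, 650 with 60 libraries and region as a term, 11 with the block and 5 with the olfactory bulb score, and in the interaction 4 became 17 with DESeq2, 1 with RLE size factors, 1 without the filter and 0 with the block. Leaving out 1 replicate gave 68, 51 and 40 in prefrontal cortex without KO replicate 7, 1 or 5, 40 without WT replicate 7, and 9 to 11 without KO replicate 3, 4, 6, 9 or 10 or WT replicate 1, 3, 8, 9 or 10. It gave 12 to 13 in hippocampus without KO replicate 3, 9 or 10 or WT replicate 6, 9 or 10, 15 in striatum without WT replicate 5 and 5 without KO replicate 3 or 9 or WT replicate 1, 2, 3, 4 or 10, and 48 and 41 on the sums without KO replicate 5 or 7. With a log2 fold change of 0.5 or more in size as the limit, the WT region contrasts called 57 (striatum against hippocampus), 60 (striatum against prefrontal cortex) and 54 (hippocampus against prefrontal cortex) channel genes, and the KO contrasts 52, 62 and 49 in the same order. Of all genes, 23.3%, 26.9% and 23.3% passed that limit in WT and 23.4%, 28.9% and 23.8% in KO. At the 2-fold limit, leaving out a WT replicate gave 22 to 25, 29 to 30 and 21 to 25 channel genes in WT. With all WT replicates, 10.2%, 11.6% and 10.1% of all genes passed that limit. With the choroid plexus score, chosen after seeing the data, the sign turned for Kcne2 in striatum against hippocampus (0.0266), striatum against prefrontal cortex (-0.0477) and hippocampus against prefrontal cortex (-0.0742), and for Kcnj13 in hippocampus against prefrontal cortex (-3.30), where the marker sums of the regions do not overlap in WT; the cause was not tested. Without WT replicates 1, 8 or 10, Kcne2 and Kcnj13 no longer passed in striatum against hippocampus (-1.16 to -1.31), and Kcne2 missed with DESeq2 (-1.47, adjusted p = 0.0586). Values near 0 changed sign for Kcnk3 in striatum with voom (-0.0176). Over all settings run, leaving out single replicates included, Kcnk3 had -0.0215 to 0.0493 in striatum and -0.0772 to 0.0287 in hippocampus. Over the same settings Kcnh2 had -0.00417 to 0.0554 and Kcnip4 -0.00334 to 0.0667 in striatum. Equal replicate numbers across regions of a genotype correlated over 0.1 in 28 of 30 pairs for KO and 28 of 30 for WT. Unequal numbers did so in 44 of 270 pairs for KO and 50 of 270 for WT. As a hint from the data, 52 of 60 libraries matched their own number best in another region. With the replicate block, 0 channel genes were called between KO and WT. That block pairs KO and WT libraries of equal number, which are different mice, so it does not account for shared animals. Within a region, such pairs had a median correlation of -0.0764, against 0.0196 for unequal numbers. With the block the region contrasts called 29, 34 and 21 channel genes in KO and 24, 30 and 23 in WT. In the main fits 10.4%, 12.6% and 9.74% of all genes passed in KO and 10.2%, 11.6% and 10.1% in WT. Depth limits genes under about 1 CPM, whose intervals are wide.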
